A study of Mus musculus with 35 samples.

Results

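The 8 GIMAP genes, Gimap1, Gimap3, Gimap4, Gimap5, Gimap6, Gimap7, Gimap8 and Gimap9, were followed through every RNA-seq library of a study of acidity and IL-2 in CD8+ T cells. They were chosen by name, as the members of the family given by their symbols, and make up 8 of the 48709 genes in the count tables. Earlier results of these data were known when they were chosen. All 8 passed the filter on low counts, and no library held fewer than 1685 reads for any of them.

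The cells were OT-I cytotoxic T lymphocytes (CTLs), that is, splenic mouse CD8+ T cells that carry 1 transgenic T-cell receptor, activated through CD3 and CD28 and then expanded in IL-2. They were sampled at the start (0 h, no treatment), or after 24 h at pH 7.4, pH 7 or pH 6.6, in each case without IL-2 or with 200 IU/mL of murine IL-2, which gave 7 groups of 5 biological replicates and 35 libraries. All groups therefore share the transgenic receptor, the strong priming and the earlier IL-2 expansion, all were grown in low-glucose DMEM, and dead cells were removed on a Ficoll gradient before RNA was extracted. The labels do not give the age of the mice or say whether 1 replicate is 1 mouse. The p-values rest on the spread left among these libraries once group and replicate number were fitted. Whether that is a spread between mice cannot be told.

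GIMAP proteins (GTPases of the immunity-associated protein family) are small guanine-nucleotide-binding proteins that are found mainly in lymphocytes and are anchored to, or recruited to, internal membranes. Several of them are needed for T cells to survive outside the thymus: rodents that lack Gimap5 lose most of their peripheral T cells, and Gimap1 is needed by mature T and B cells. Their genes lie side by side in 1 cluster, and they are usually described as highly expressed in resting T cells and reduced after activation.

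Most GIMAP transcripts were low in CTLs kept at pH 7.4 with IL-2 and high in CTLs kept at pH 6.6 with IL-2. Gimap3 and Gimap6 were 3.34-fold and 3.31-fold higher at pH 6.6 than under neutral conditions (pH 7.4) when IL-2 was present. Withdrawal of IL-2 at pH 7.4 left the same pair of genes 2.33-fold and 2.73-fold higher than with IL-2. Gimap8 was likewise 2-fold higher after withdrawal. Both comparisons use the same libraries at pH 7.4 with IL-2, so they are not independent. In the absence of IL-2, acidity (pH 6.6) left Gimap8 2.03-fold lower than pH 7.4 did, and Gimap3 and Gimap6 1.14-fold and 1.27-fold higher. Gimap9 varied least, its highest group mean being 1.30 times its lowest.

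Libraries held between 16721319 and 34033340 reads assigned to genes, with a median of 24730020. The T-cell marker list, 8 of 8 genes tested, summed to 3747 to 6543 CPM (reads per 1000000 reads of the tested genes) over all libraries, whereas the B-cell, myeloid and erythroid lists summed to at most 6.10, 3.98 and 0.235 CPM. Ms4a1 and Pax5, which define B cells, were at 0 in every library. However, 1 of the 6 B-cell genes passed the filter on low counts. Its log2 fold change was 0.68 for IL-2 at pH 7.4 (called higher). For acidity (pH 6.6 against 7.4) in the presence of IL-2, that gene was called lower (-0.37). Of the 6 myeloid genes, 2 passed the filter. For IL-2 at pH 7.4, 1 myeloid gene was called lower, and for acidity with IL-2, 1 was called higher. The lists for NK cells, CD4 T cells and endothelium summed to at most 705, 63.7 and 119 CPM, mainly from Eomes, Zbtb7b and Pecam1. Of the NK cell list, Ncr1 had at most 2 reads in a library, but Klrb1c had a mean log2 CPM of 5.10. Cdh5, of the endothelium list, had at most 1 read in a library. All 3 genes of the CD4 T-cell list, Cd4, Foxp3 and Zbtb7b, passed the filter on low counts. The NK cell list moved with the groups, from 596 to 705 CPM at pH 7.4 with IL-2 to 180 to 257 CPM at pH 6.6 with IL-2 and 168 to 185 CPM at pH 7.4 without it. The endothelium list, mainly Pecam1, ran from 27.3 to 36.2 CPM at pH 7.4 with IL-2, from 29.9 to 39.6 CPM at pH 6.6 with IL-2 and from 84.2 to 119 CPM at pH 7.4 without IL-2. In bulk RNA, fewer cells of a type and less RNA per cell cannot be told apart. Other properties of the libraries moved with the groups. The summed level of 4 genes of cycling cells (Mki67, Top2a, Pcna and Mcm5) ran from 3874 to 4797 CPM at pH 7.4 with IL-2, from 1070 to 1573 CPM at pH 6.6 with IL-2, and from 236 to 335 CPM at pH 7.4 without IL-2. At pH 6.6 without IL-2 it ran from 759 to 1447 CPM, and at 0 h from 944 to 1177 CPM. The share of reads that fell outside annotated genes was 3.91 to 5.18% at pH 7.4 with IL-2, against 7.34 to 8.83% at pH 6.6 with IL-2 and 7.70 to 10.2% at pH 7.4 without IL-2. The part of these in the GIMAP results was not tested.

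The 8 genes occupy 123.6 kb of mouse chromosome 6 (GRCm38), from position 48647234, where Gimap8 starts, to position 48770851, at the start of Gimap3. In order along the chromosome these are Gimap8 (ENSMUSG00000064262, 48647234 to 48660875), Gimap9 (ENSMUSG00000051124, 48676129 to 48679114), Gimap4 (ENSMUSG00000054435, 48684549 to 48692060) and Gimap6 (ENSMUSG00000047867, 48701582 to 48708225), followed by Gimap7 (ENSMUSG00000043931, 48718621 to 48724636), Gimap1 (ENSMUSG00000090019, 48739054 to 48743795), Gimap5 (ENSMUSG00000043505, 48746197 to 48754210) and Gimap3 (ENSMUSG00000039264, 48764464 to 48770851). Gimap6 and Gimap3 lie on the minus strand and the others on the plus strand, and all 8 are annotated as protein coding. Some of these transcripts cannot be counted as cleanly as the others. Of the 50-base windows in its transcripts, Gimap1 had 64.5% that occur in no other gene, against 93.2% for Gimap5, 91.9% for Gimap3, and 98.6 to 100% for the rest; Gimap5 and Gimap3 share windows with each other. A readthrough gene, Gm28053, covers 3.48% of the exons of Gimap7, 6.44% of those of Gimap1 and 3.69% of those of Gimap5, and 36.0% of the Gimap1 exons lie opposite the antisense gene Gimap1os. The strand setting used for counting is not given in the sources used here, so sense and antisense reads over that stretch of Gimap1 are uncertain.

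RefSeq gave promoter sequence for 8 of 8 members. The 250 bases before the annotated start are shown, 5′ to 3′ in the direction of the gene, for the 4 genes whose levels moved together (Gimap6, Gimap3, Gimap5 and Gimap1) and for Gimap8, which behaved differently. Their regions in GRCm38.p6 are chr6:48708245-48708494 and chr6:48770852-48771101 on the minus strand, and chr6:48745947-48746196, chr6:48738797-48739046 and chr6:48646984-48647233 on the plus strand. Capitals mark a match to 1 of 8 motifs searched on both strands.
Gimap6: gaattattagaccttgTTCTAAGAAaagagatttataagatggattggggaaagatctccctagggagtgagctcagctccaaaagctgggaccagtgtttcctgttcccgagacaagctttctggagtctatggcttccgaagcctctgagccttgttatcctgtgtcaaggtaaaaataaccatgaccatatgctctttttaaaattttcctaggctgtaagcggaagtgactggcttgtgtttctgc
Gimap3: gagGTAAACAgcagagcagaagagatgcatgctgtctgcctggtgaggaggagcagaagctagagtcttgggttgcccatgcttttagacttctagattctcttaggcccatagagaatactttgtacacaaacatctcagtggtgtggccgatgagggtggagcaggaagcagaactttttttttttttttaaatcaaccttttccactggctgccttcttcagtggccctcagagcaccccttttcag
Gimap5: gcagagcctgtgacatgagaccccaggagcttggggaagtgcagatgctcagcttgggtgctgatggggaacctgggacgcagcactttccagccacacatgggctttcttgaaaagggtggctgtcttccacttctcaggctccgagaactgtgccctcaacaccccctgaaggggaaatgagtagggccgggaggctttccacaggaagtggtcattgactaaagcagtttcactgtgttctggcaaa
Gimap1: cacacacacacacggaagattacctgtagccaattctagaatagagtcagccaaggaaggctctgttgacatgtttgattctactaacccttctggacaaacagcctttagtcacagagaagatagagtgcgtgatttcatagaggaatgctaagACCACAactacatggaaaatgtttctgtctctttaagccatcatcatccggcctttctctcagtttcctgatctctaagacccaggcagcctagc
Gimap8: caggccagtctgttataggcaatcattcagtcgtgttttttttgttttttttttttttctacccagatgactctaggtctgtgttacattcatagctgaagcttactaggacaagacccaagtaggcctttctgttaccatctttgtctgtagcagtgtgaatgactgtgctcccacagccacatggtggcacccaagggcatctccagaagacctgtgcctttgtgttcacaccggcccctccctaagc

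The match in Gimap6 is to TTCNNNGAA, the spaced repeat bound by STAT factors such as the STAT5 that IL-2 activates, which 7.02% of 32851 promoters of the same length held. Gimap3 held the FOXO core TGTTTAC, found in 3.17% of promoters. The RUNX core TGTGGT, found in 14.05% of promoters, occurred in Gimap1, Gimap4 and Gimap7, and the SP/KLF box GGGCGG, found in 32.7%, in Gimap7 and Gimap9. An alternative start of Gimap8 also had a STAT match in its window. The window of Gimap5 and the Gimap8 window shown held no match to any of the 8. No window of a member contained the ETS core CCGGAAG (6.91% of promoters), the E-box CACGTG (6.02%), the Ikaros core TGGGAA (21.6%) or the cyclic AMP response element TGACGTCA (1.55%). These are matches of letters, not sites of binding, and overlapping motifs were not found in the windows shown.

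Per kilobase of exon, which allows genes to be compared, Gimap4 and Gimap3 were the most abundant. Gimap4 had group means between 503 CPM per kb at 0 h and 861 at pH 6.6 with IL-2. Gimap3 spanned a wider range, from 192 CPM per kb at pH 7.4 with IL-2 to 642 at pH 6.6 with IL-2. Gimap6 followed, with 94.6 to 328 CPM per kb. Gimap5 had the lowest level per kilobase in every group, at 18.3 to 37.1. The others lay between 27.4 CPM per kb (Gimap1 at pH 7.4 with IL-2) and 118 (Gimap8 at pH 7.4 without IL-2). The ratio of the highest to the lowest group mean was 3.47 for Gimap6, 3.34 for Gimap3, 2.54 for Gimap1, 2.03 for Gimap5, 2.02 for Gimap8, 1.91 for Gimap7, 1.71 for Gimap4 and 1.30 for Gimap9. For Gimap6, Gimap3, Gimap1 and Gimap5, the group with the lowest mean was pH 7.4 with IL-2. Levels from here on are TMM-normalized CPM, in the order of replicates 1 to 5.

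**Figure D1:**
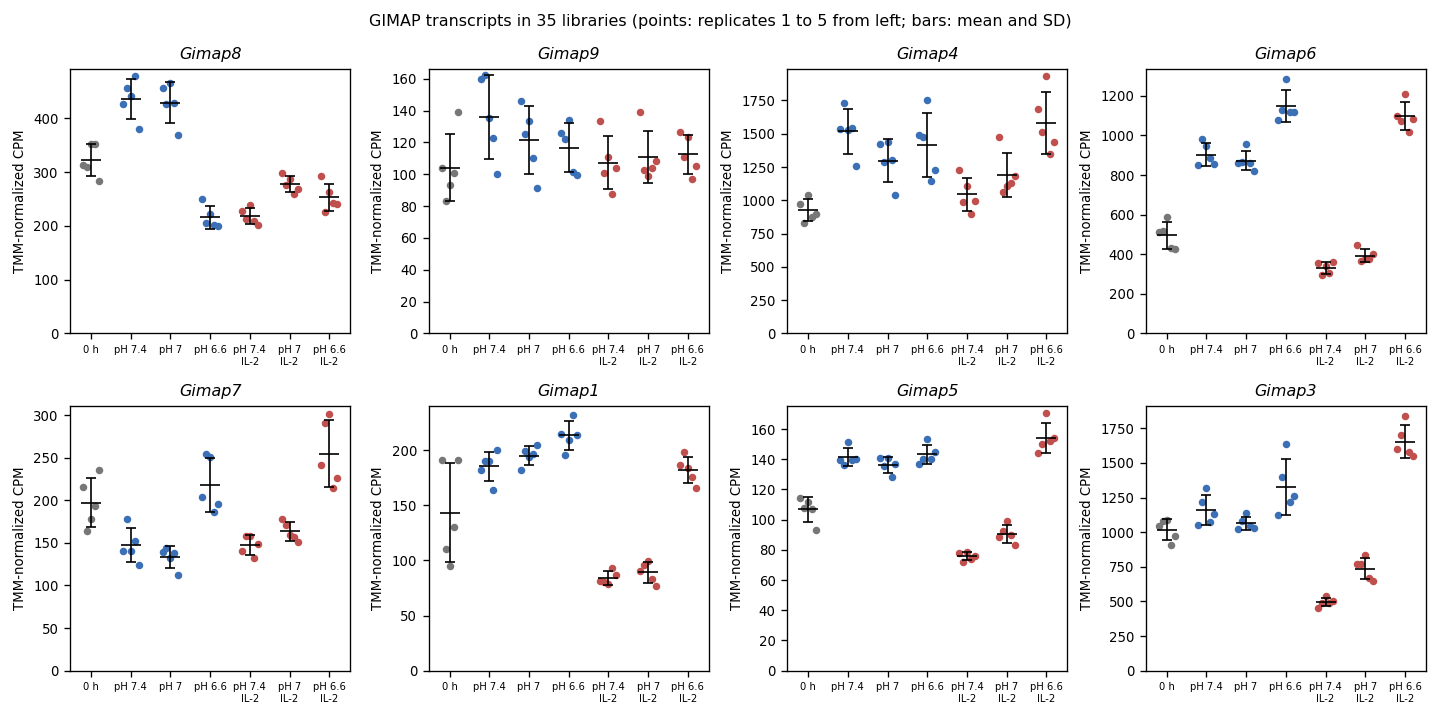
Level of each GIMAP transcript in TMM-normalized CPM (vertical axes from 0) in the 7 groups (0 h grey, without IL-2 blue, with IL-2 red); points are the 5 replicates and bars the mean and SD. Gimap6, Gimap1, Gimap5 and Gimap3 were low at pH 7.4 and pH 7 with IL-2 and high at pH 6.6 with IL-2, while Gimap8 was highest at pH 7.4 and pH 7 without IL-2 and Gimap9 overlapped between neighbouring groups throughout.

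The first comparison asks what acidity does to CTLs that are supplied with IL-2. Of the 8 members, 7 were higher at pH 6.6 than in the neutral medium, both with IL-2, where 35.4% of all 13819 genes tested were called higher. None was lower in edgeR, and none at an unadjusted p under 0.05 or in DESeq2 either. The median log2 fold change was 0.90 over the members and -0.067 over all genes tested. Gimap6, a protein linked to autophagy through its binding of GABARAPL2, stood at 355, 297, 339, 305 and 359 CPM at pH 7.4 and at 1099, 1075, 1211, 1019.5 and 1082 CPM at pH 6.6. Every acidic library was thus above every neutral one, and the log2 fold change was 1.73 ± 0.076 (estimate ± SE; adjusted p = 1.84e-19, edgeR quasi-likelihood test with Benjamini-Hochberg adjustment over all genes, as for all adjusted p-values here). Gimap3, a close relative of Gimap5 that is found in mice, stood at 453, 492, 537, 488 and 505 CPM at pH 7.4 and 1602, 1699, 1842, 1580.2 and 1548 CPM at pH 6.6. It rose by a log2 fold change of 1.74 ± 0.065 (edgeR adjusted p = 5.58e-21), again with no overlap.

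Gimap5, the lysosomal member whose loss empties the peripheral T-cell pool, read 77.6, 72.2, 78.8, 73.98 and 76.1 CPM at pH 7.4 with IL-2 and 144, 149.8, 170.4, 152 and 154 CPM at pH 6.6 with IL-2. It had the smallest SE of the family, and the rise of 1.02 ± 0.055 in log2 was 2.03-fold (edgeR adjusted p = 2.31e-17). Gimap1 gave 81.7, 80.3, 78.4, 93.5 and 86.9 CPM at pH 7.4 and 186, 198, 184, 175 and 166 CPM at pH 6.6, a log2 fold change of 1.11 ± 0.12 (edgeR adjusted p = 7.81e-10). The antisense gene Gimap1os moved the other way, by -0.25 ± 0.11 (edgeR adjusted p = 0.0473), from a mean of 33.4 to 28.1 CPM.

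Smaller rises were seen in 3 further members. Gimap7, a GTPase that dimerizes to become active, went from 140.4, 158, 159, 132 and 149 CPM to 241, 291, 301, 214 and 226 CPM (log2 fold change 0.78 ± 0.10, edgeR adjusted p = 2.27e-08). Gimap4, described as an accelerator of T-cell death, went from 1229, 988, 1108, 900.4 and 995 CPM to 1684, 1512, 1933, 1344 and 1439 CPM (log2 fold change 0.60 ± 0.09, edgeR adjusted p = 4.74e-07). Both genes separated the groups without overlap. Gimap8, the longest protein of the family, with several GTPase domains, changed by only 0.21 ± 0.066 (edgeR adjusted p = 0.0044), its replicates overlapping between 201 to 239 CPM at pH 7.4 and 227 to 292 CPM at pH 6.6. For Gimap9 the estimate was 0.076 ± 0.12 (edgeR adjusted p = 0.564).

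At pH 7 with IL-2, a milder acidity, 4 of the 8 members were higher than at pH 7.4 with IL-2, where 9.15% of all genes were called higher. Gimap3 led, at 768, 770.1, 832, 666 and 649.9 CPM at pH 7, all above the pH 7.4 libraries (log2 fold change 0.57 ± 0.064, edgeR adjusted p = 2.22e-07). Gimap8 (259.8 to 297 CPM at pH 7), Gimap5 (82.99 to 99.1 CPM) and Gimap6 (366 to 448 CPM) also lay above their pH 7.4 libraries. Gimap8 rose by 0.35 ± 0.066, Gimap5 by 0.26 ± 0.055 and Gimap6 by 0.25 ± 0.074 in log2 (edgeR adjusted p = 0.00035, 0.00122 and 0.0153). The call of Gimap6 was lost when replicate 1, 2 or 4 was left out (edgeR adjusted p = 0.0604, 0.0843 and 0.0697). Between pH 7 and pH 6.6, both with IL-2, 6 of the 8 were higher at the lower pH, against 32.5% of all genes called higher. Gimap6 added 1.48, Gimap3 1.17, Gimap1 1.03, Gimap5 0.77, Gimap7 0.63 and Gimap4 0.40 in log2 fold change over this step. Gimap8 gave -0.14 ± 0.065 (edgeR adjusted p = 0.0612). These comparisons share libraries with each other and with the one before.

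The next comparison asks what IL-2 does at physiological pH. It shares the libraries at pH 7.4 with IL-2 with the first comparison. With IL-2 at pH 7.4, 7 of the 8 members were lower than without it, where 41.1% of all genes were called lower. The median log2 fold change was -0.95 over the members and -0.042 over all genes. Without IL-2, Gimap6 stood at 849, 981, 947, 886 and 855 CPM, every value above the highest of the libraries with IL-2 given earlier (log2 fold change -1.45 ± 0.075, edgeR adjusted p = 4.21e-18). Gimap3 stood at 1053, 1216, 1316, 1077 and 1129.8 CPM without IL-2 (-1.22 ± 0.064, edgeR adjusted p = 5.99e-18) and Gimap1 at 182, 189.9, 190.3, 164 and 200.1 CPM (-1.14 ± 0.12, edgeR adjusted p = 3.96e-10). Gimap8, whose rise with acidity had been small, was among the genes that fell. It read 426, 456, 442, 478 and 379.8 CPM without IL-2 and 228, 214, 239, 209 and 201 CPM with it (-1.001 ± 0.066, edgeR adjusted p = 2.35e-15). Gimap5 fell by 0.90 on the log2 scale (edgeR adjusted p = 2.88e-16) from 139, 136, 152, 139 and 140.2 CPM.

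Gimap4 and Gimap9 fell less with IL-2 at pH 7.4, with log2 fold changes of -0.55 ± 0.09 and -0.34 ± 0.12 (edgeR adjusted p = 1.82e-06 and 0.00828). The groups overlapped for Gimap9, and its call was lost when replicate 4 was left out (edgeR adjusted p = 0.0525). Gimap7 was the exception: it read 139.9, 178, 139.9, 153 and 125 CPM without IL-2 and 140.4, 158, 159, 132 and 149 CPM with it, a log2 fold change of 0.0091 ± 0.10 (edgeR adjusted p = 0.936).

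At pH 7, 5 members were lower with IL-2 and 1 higher, where 77.2% of all genes were called in either direction. The share of members called was thus near that of all genes. Gimap6 (-1.15), Gimap1 (-1.13), Gimap8 (-0.62), Gimap5 (-0.59) and Gimap3 (-0.53) were lower in log2 fold change. Gimap7 was higher by 0.30 ± 0.10 (edgeR adjusted p = 0.00836), a call lost without replicate 1 (edgeR adjusted p = 0.106); Gimap4, not called here, was lower without that replicate (edgeR adjusted p = 0.0469). At pH 6.6, 2 members were higher with IL-2, against 13.2% of all genes called higher, and none was lower in edgeR, nor at an unadjusted p under 0.05 or in DESeq2. The 2 were Gimap3, with 1121, 1398, 1635, 1219 and 1258 CPM without IL-2 and the values given above with it (0.32 ± 0.063, edgeR adjusted p = 0.000256), and Gimap8 (0.23 ± 0.066, edgeR adjusted p = 0.00948). Gimap8 was no longer called without replicate 3 (edgeR adjusted p = 0.0521). Gimap6 read 1079, 1130.5, 1287, 1118 and 1119 CPM at pH 6.6 without IL-2, and its log2 fold change with IL-2 was -0.064 ± 0.074 (edgeR adjusted p = 0.572). When only the groups compared were fitted, 5 members were called higher with IL-2 at pH 6.6 (Gimap3, Gimap8, Gimap4, Gimap7 and Gimap5) and Gimap1 lower.

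**Figure D2:**
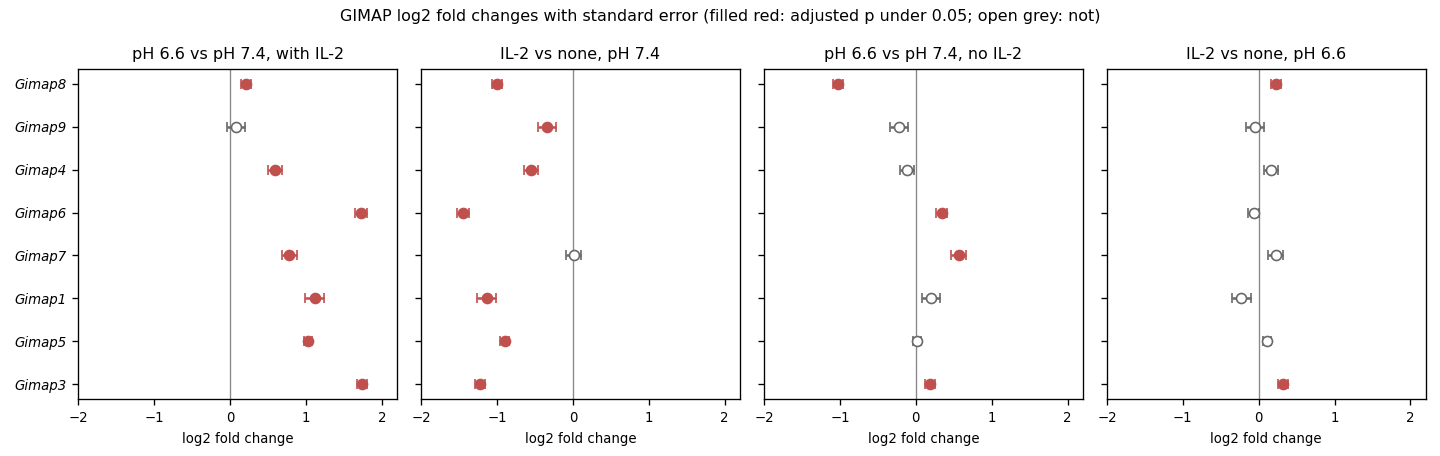
Log2 fold change (horizontal axes) of each GIMAP gene in 4 comparisons, points with SE bars; filled red points passed an adjusted p of 0.05 in edgeR and open grey points did not. With IL-2 the acidic effect ran from 0.076 (Gimap9) to 1.74 (Gimap3), and without IL-2 from -1.02 (Gimap8) to 0.57 (Gimap7).

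Acidity was also examined in CTLs deprived of IL-2. At pH 6.6 without IL-2, 3 members were higher and 1 lower than at pH 7.4 without IL-2, where 67.0% of all genes were called in either direction. The median over the members was 0.10 in log2, against -0.034 over all genes. Gimap8 showed the largest change of the family in this comparison: from the 379.8 to 478 CPM seen at pH 7.4, it went to 249, 206, 223, 201 and 199 CPM at pH 6.6, with no overlap (log2 fold change -1.02 ± 0.066, edgeR adjusted p = 1.43e-14). Gimap7 moved in the opposite direction, to 204, 254, 250.2, 187 and 196 CPM, all above the pH 7.4 libraries (0.57 ± 0.10, edgeR adjusted p = 1.01e-05). Gimap6 (0.34 ± 0.074, edgeR adjusted p = 0.000147) and Gimap3 (0.19 ± 0.063, edgeR adjusted p = 0.00896) rose modestly, and Gimap3 was no longer called when the replicate block or replicate 2 was left out (edgeR adjusted p = 0.0508 and 0.0759). The estimates for Gimap1 (0.20 ± 0.12), Gimap5 (0.019 ± 0.054), Gimap4 (-0.11 ± 0.09) and Gimap9 (-0.22 ± 0.12) did not pass the test. At pH 7 without IL-2 no member was called in either direction by edgeR, against 1.68% of all genes; the estimates ran from -0.23 (Gimap4) to 0.076 (Gimap1), and the smallest adjusted p was 0.314, for Gimap4. At an unadjusted p under 0.05, 1 member was lower (Gimap4) and none higher, and DESeq2 called none. When only those 2 groups were fitted, edgeR called Gimap4 lower (adjusted p = 0.0155).

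Whether acidity acted differently with and without IL-2 was tested directly as an interaction, which is equally the difference of the IL-2 effect between acidic and neutral medium. It was positive for 6 of the 8 members, where 34.3% of all genes had a positive call. The pH 6.6 effect was more positive with IL-2 than without by 1.55 ± 0.09 in log2 for Gimap3, 1.39 ± 0.10 for Gimap6 and 1.23 ± 0.093 for Gimap8 (edgeR adjusted p = 5.83e-16, 2.69e-13 and 2.66e-13). The corresponding values were 1.01 ± 0.077 for Gimap5, 0.91 ± 0.17 for Gimap1 and 0.71 ± 0.13 for Gimap4. In all 6 genes, 5 of 5 replicates showed this direction, as they also did for Gimap9, which was not called. Gimap7 (0.21 ± 0.14) and Gimap9 (0.29 ± 0.17) did not pass (edgeR adjusted p = 0.183 and 0.117). Gimap7 thus rose with acidity on both sides of the design, by 0.78 with IL-2 and 0.57 without. For Gimap8 the interaction combined a fall without IL-2 and a small rise with it. The same interaction for pH 7 was positive for 4 members, where 2.19% of all genes had a positive call: Gimap3 (0.69 ± 0.09, edgeR adjusted p = 6.35e-05), Gimap4 (0.43 ± 0.13, edgeR adjusted p = 0.0436), Gimap8 (0.38 ± 0.092, edgeR adjusted p = 0.0157) and Gimap5 (0.31 ± 0.077, edgeR adjusted p = 0.0175). Without the replicate block 1 member, Gimap3, kept its call, and leaving out 1 replicate left 1 to 3, Gimap3 always among them.

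Acidic CTLs with IL-2 were also set against CTLs deprived of IL-2 at pH 7.4. Here 4 members were higher and 2 lower at pH 6.6 with IL-2, where 64.4% of all genes were called in either direction. The share of members called was thus not far above that of all genes. Gimap7 (0.79 ± 0.10, edgeR adjusted p = 3.95e-08), Gimap3 (0.52 ± 0.064, edgeR adjusted p = 2.02e-08) and Gimap6 (0.28 ± 0.074, edgeR adjusted p = 0.0015) were higher than after withdrawal. Gimap8 was lower (-0.79 ± 0.066, edgeR adjusted p = 4.43e-12). Gimap1 (-0.024 ± 0.12) and Gimap4 (0.049 ± 0.09) did not pass the test. The calls of Gimap5, higher by 0.12, and Gimap9, lower by a log2 of -0.27, were borderline (edgeR adjusted p = 0.0452 and 0.0448). Both were lost without the replicate block (edgeR adjusted p = 0.0728 and 0.0887). With each replicate left out in turn, they were lost in 3 and 4 of the 5 fits.

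The start of the experiment gives the direction of these changes over time. At 0 h, Gimap6 stood at 514, 516, 589, 431 and 425 CPM and Gimap3 at 1046, 1079, 1089, 910.2 and 971 CPM. Over 24 h at pH 7.4 with IL-2, 6 members fell, where 30.9% of all genes were called lower: Gimap3 by 1.04, Gimap1 by 0.76, Gimap6 by 0.58, Gimap8 by 0.56, Gimap5 by 0.50 and Gimap7 by 0.43 on the log2 scale. Over 24 h at pH 7.4 without IL-2, 7 rose and 1 fell, where 75.2% of all genes were called in either direction. Gimap6 (0.87) and Gimap4 (0.72) gained most, and Gimap7 was the one that fell (-0.44 ± 0.10, edgeR adjusted p = 0.000244). Gimap3 gained only 0.18 ± 0.063 (edgeR adjusted p = 0.0106), a call lost without the replicate block or replicate 3 (edgeR adjusted p = 0.0569 and 0.0608), and the rise of Gimap9 (0.36 ± 0.12) was lost without replicate 2 (edgeR adjusted p = 0.0647).

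Over 24 h at pH 6.6 with IL-2, 6 members rose and 1 fell, where 68.5% of all genes were called in either direction. Gimap6 rose by 1.15, Gimap4 by 0.77, Gimap3 by 0.70 and Gimap5 by 0.53, while Gimap8 fell by 0.35 on the log2 scale. Gimap3 thus fell below its starting level at pH 7.4 with IL-2 and rose above it at pH 6.6 with IL-2. At pH 6.6 without IL-2, 5 rose and 1 fell, where 75.1% of all genes were called in either direction, again a share near that of the members. Gimap6 again rose most (1.22) and Gimap8 fell by 0.58 on the log2 scale. Gimap1 was uneven at the start, at 191, 110.3, 94.8, 130.0 and 191 CPM, with replicates 1 and 5 well above the other 3. Its rises from 0 h without IL-2 at pH 7.4 (0.38 ± 0.12) and with IL-2 at pH 6.6 (0.36 ± 0.12) were lost without replicate 3 (edgeR adjusted p = 0.0737 and 0.0782), the latter also without replicate 2 (edgeR adjusted p = 0.0511). The 4 comparisons share the 0 h libraries.

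Ordered by mean level, the groups of Gimap6 ran from pH 7.4 with IL-2 (331 ± 28.5 CPM, SD, n = 5) through pH 7 with IL-2 (394 ± 33.2), 0 h (495 ± 68.4), pH 7 (873 ± 49.3), pH 7.4 (904 ± 58.4) and pH 6.6 with IL-2 (1097 ± 70.4) to pH 6.6 without IL-2 (1147 ± 80.9). Neighbours in this order overlapped between pH 7 with IL-2 and 0 h, between pH 7 and pH 7.4 without IL-2, and between the 2 groups at pH 6.6. Gimap3 ran from pH 7.4 with IL-2 (495 ± 30.3) and pH 7 with IL-2 (737 ± 77.1) through 0 h (1019 ± 76.5) and the 3 groups without IL-2 to pH 6.6 with IL-2 (1654 ± 119). The 2 lowest groups did not overlap their upper neighbours, and all later neighbours overlapped. Gimap5 was lowest at pH 7.4 with IL-2 (75.7 ± 2.67) and highest at pH 6.6 with IL-2 (154 ± 9.82), its upper 4 groups each overlapping the next. Gimap1 went from 84.2 ± 6.11 CPM at pH 7.4 with IL-2 to 213 ± 13.04 CPM at pH 6.6 without IL-2, with every pair of neighbours overlapping.

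The remaining members had other orders. Gimap8 was lowest at pH 6.6 without IL-2 (216 ± 20.9 CPM) and at pH 7.4 with IL-2 (218 ± 15.3), and highest at pH 7 (429 ± 38.1) and pH 7.4 (436 ± 36.8) without IL-2; a gap separated the last pair from the other groups. Gimap7 was lowest at pH 7 without IL-2 (133 ± 12.6 CPM) and highest in both groups at pH 6.6, at 218 ± 31.7 CPM without IL-2 and 255 ± 39.1 CPM with it. Gimap4 ran from 924 ± 83.1 CPM at 0 h to 1582 ± 232 CPM at pH 6.6 with IL-2. Gimap9 stayed between 104 ± 21.2 CPM at 0 h and 136 ± 26.2 CPM at pH 7.4 without IL-2. In Gimap7, Gimap4 and Gimap9, all neighbours overlapped. At 0 h, Gimap9 read 104, 83.4, 93.5, 101 and 139 CPM, replicate 5 being the highest. That library had the largest share of reads not aligned uniquely of all 35 (48.3%) and the smallest share outside genes (2.58%). The part of this in the calls that follow was not tested. Without replicate 5, Gimap9 passed the test in 4 comparisons in which it otherwise did not: against 0 h at pH 6.6 without IL-2 (edgeR adjusted p = 0.00167) and with IL-2 (0.0136), for acidity (pH 6.6) without IL-2 (0.0175), and in the pH 6.6 interaction (0.022). Gimap7 likewise passed at pH 6.6 without IL-2 against 0 h when replicate 5 was left out (edgeR adjusted p = 0.0294).

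Over the 35 libraries, the members fell into those that varied together and those that did not. Pearson's r of log2 CPM was 0.96 between Gimap6 and Gimap5, 0.94 between Gimap5 and Gimap3, 0.90 between Gimap6 and Gimap3, and 0.82 to 0.88 between Gimap1 and these 3. Gimap4 correlated at 0.73 with Gimap6 and at 0.68 with Gimap9. Gimap8 reached at most 0.39 with any member (Gimap9), and its r with Gimap7 was -0.46. These values describe 35 libraries that share the 7 groups and 5 replicates and are not independent, and Gimap5 and Gimap3 share part of their sequence. Along the chromosome, Gimap6, between Gimap4 and Gimap7, varied with Gimap5 and Gimap3 at the far end of the cluster, while Gimap7 and Gimap1 are neighbours with an r of 0.29.

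**Figure D3:**
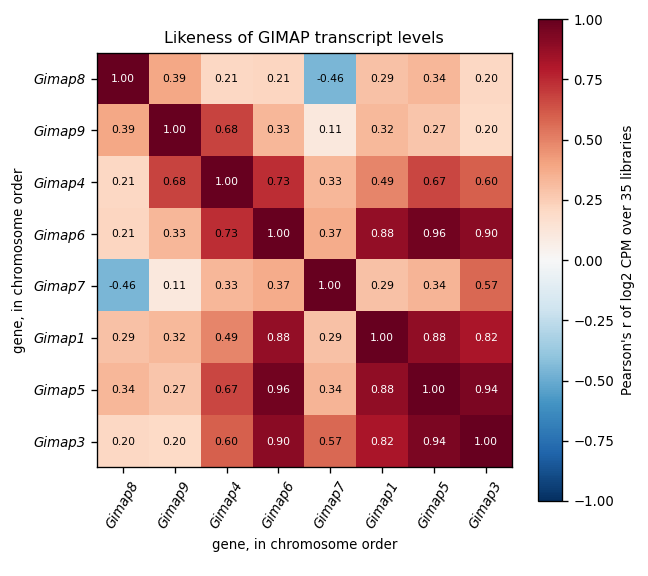
Pearson's r of log2 CPM between each pair of GIMAP genes over 35 libraries, genes in chromosome order on both axes, with the colour scale from -1 to 1. Gimap6, Gimap1, Gimap5 and Gimap3 form a group with r from 0.82 to 0.96, and Gimap8 with Gimap7 has the one negative value, -0.46.

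Within 200 kb of the cluster, 32 further genes are annotated, of which 11 were tested. Inside the cluster, 2 of 3 tested genes were higher in the acidic medium with IL-2 than in the neutral one: Gm28053, the readthrough gene that shares exons with Gimap7, Gimap1 and Gimap5 (0.96 ± 0.15, edgeR adjusted p = 1.18e-06), and the long non-coding RNA 4833403J16Rik (1.12 ± 0.12, edgeR adjusted p = 1.92e-10). Gimap1os was lower. In the flanks, 2 of 8 tested genes were higher and 4 lower, and over all genes 35.4% were higher and 40.9% lower. Lrrc61 gave -0.11 ± 0.099 (edgeR adjusted p = 0.297) and Repin1 0.24 ± 0.11 (edgeR adjusted p = 0.052). On the other side, Tmem176a and Tmem176b were lower (-0.65 ± 0.14 and -0.34 ± 0.12). The highest estimate in the flanks was that of Sspo, a gene at under 1 CPM in every group. With IL-2 at pH 7.4, 2 of the 3 inner genes were lower and none was higher. Of the 8 flanking genes, 4 were lower, among them Lrrc61 (-1.17 ± 0.096, edgeR adjusted p = 7.22e-13), and 1 was higher. Over all genes, 41.1% were lower and 39.3% higher.

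**Figure D4:**
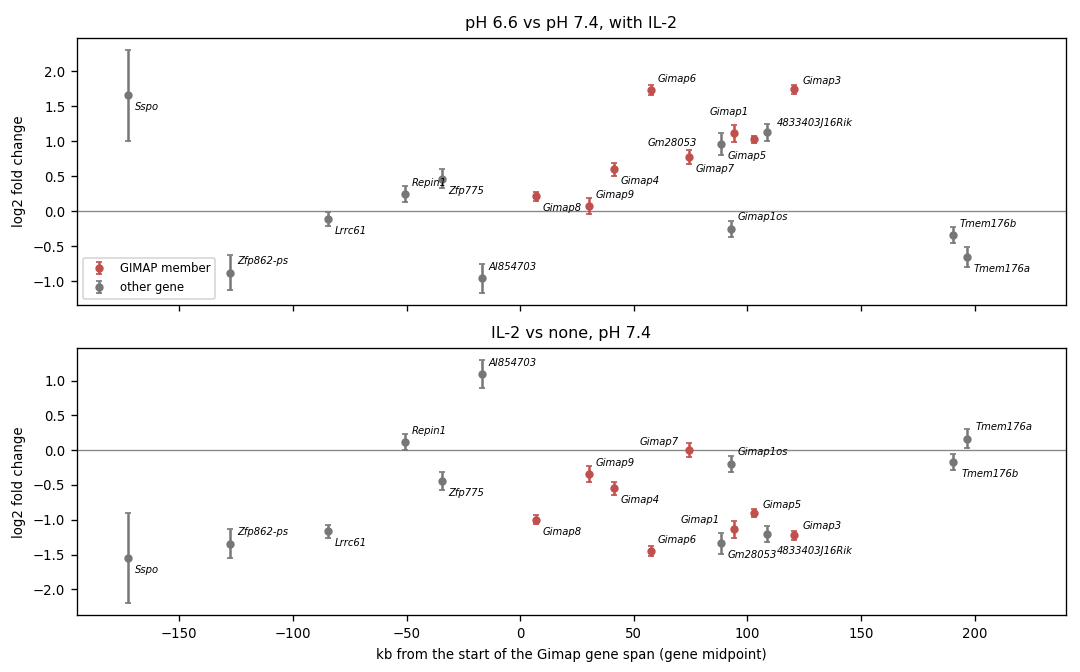
Log2 fold change (vertical axes, bars SE) against the position of each tested gene, in kb from the start of the GIMAP span, for acidity with IL-2 (top) and IL-2 at pH 7.4 (bottom). GIMAP genes are red; with IL-2 the flanking genes lie from -0.96 (AI854703) to 1.66 (Sspo, a gene at under 1 CPM in every group).

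Genes linked to resting T cells were read in the same comparisons, from a list chosen with earlier results of these data known. Of 19 genes of the naive and quiescent T-cell program, 17 were higher and 1 lower with acidity in the presence of IL-2 (pH 6.6 against 7.4; background 35.4% higher), with a median log2 fold change of 1.37 against -0.067 over all genes. Tcf7, a transcription factor of naive and memory T cells, rose by 3.23 ± 0.097, S1pr1, the receptor that lets T cells leave lymph nodes, by 3.10 ± 0.13, Bach2, a repressor of effector genes, by 2.27 ± 0.12, and Btg2, an antiproliferative factor, by 2.14 ± 0.15 (edgeR adjusted p = 6.19e-23, 3.07e-20, 2.31e-17 and 4.48e-14). At pH 7.4, 18 of the 19 were lower with IL-2 and 1 higher, with a median of -1.71 (over all genes, 41.1% lower and 39.3% higher). At pH 6.6, 8 were lower with IL-2 and 1 higher (over all genes, 10.6% and 13.2%). Without IL-2, 5 were higher and 8 lower in the acidic medium (pH 6.6), where 31.6% of all genes were higher and 35.4% lower, so that their share called was near that of all genes. Outside the family, Pdcd4, a translation inhibitor, followed the family's mean z-score of log2 CPM most closely over the 35 libraries (r = 0.957). Next came S1pr1 (0.950), N4bp2l1 (0.943), Hbp1, a cell-cycle repressor (0.939), and Rabgap1l (0.938). Many other genes came close: Btg1, at rank 374, still reached 0.86. Among the members, Gimap8, Gimap7 and Gimap9 followed the mean of the others at an r of only 0.21, 0.29 and 0.43.

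Genes of reported partners of GIMAP proteins were counted in both directions. Of 7 partners tested, 2 were higher and 4 lower at pH 6.6 with IL-2, where 35.4% of all genes were called higher and 40.9% lower, with a median of -0.30 against -0.067 over all genes. Bak1 and Bcl2l1, mitochondrial proteins that promote and oppose cell death, fell by 1.13 and 0.92 on the log2 scale (edgeR adjusted p = 2.51e-17 and 5.75e-12), Bcl2 fell by 0.31 and Bax by 0.30. With IL-2 at pH 7.4, 4 partners were higher and 1 lower, where 39.3% of all genes were called higher and 41.1% lower. Gabarapl2, the autophagy protein bound by Gimap6, was lower with IL-2 at pH 7.4 (-0.47 ± 0.083, edgeR adjusted p = 4.54e-06) and higher at pH 6.6 with IL-2 (0.29 ± 0.083, edgeR adjusted p = 0.00255). It was picked for naming here after its values were seen. Septins, filament-forming GTPases whose fold is close to that of GIMAPs, were read beside the family. Of 13 genes, 10 were tested, and 7 were lower and 2 higher at pH 6.6 with IL-2, beside the same 40.9% and 35.4% of all genes, with a median of -0.73. Sept11 fell by 1.42 and Sept10 by 1.68 on the log2 scale (edgeR adjusted p = 9.86e-18 and 2.37e-10), and Sept5, at a mean of 1.04 CPM at pH 7.4 with IL-2, fell by 3.28 (edgeR adjusted p = 1.03e-07). Sept4, under 1 CPM in every group, rose by 1.98 (edgeR adjusted p = 5e-08). With IL-2 at pH 7.4, 8 septins were higher and 2 lower, beside 39.3% and 41.1% of all genes.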

How the data were processed

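RNA from 35 cultures was sequenced as single reads from stranded mRNA libraries. The authors deposited read counts per gene, 1 table per sample, not normalized; the submitters' processing notes name cutadapt 1.8, STAR 2.5.2b, HTSeq 0.6.1 and GRCm38, while the annotation, strand setting and read length are not given in the sources used here. The last lines of the tables count reads without a gene and entered no total: reads outside genes (2.58 to 11.1% of all reads listed), ambiguous reads (0.871 to 0.997%) and reads not aligned uniquely (32.8 to 48.3%), so sequence shared between GIMAP genes may be undercounted. Gene IDs were matched to symbols for 48349 of 48709 genes.

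Counts were tested with edgeR 4.0.16 in R 4.3.3 (TMM, robust quasi-likelihood F test, filterByExpr with a minimum count of 10), in 1 fit of all 35 libraries with group and replicate number as terms, and adjusted by Benjamini-Hochberg over 13819 genes at a threshold of 0.05. Levels are CPM; log2 CPM used a prior count of 2. Replicate numbers come from the labels, which give each number once per group, and the design text, by which the same 5 biological replicates were cultured in the different media. Once group means were removed, log2 CPM correlated at over 0.1 in 95 of 105 pairs of libraries with the same number (median 0.273, lowest -0.039; median of different numbers -0.075). No 2 libraries of a group agreed within sampling noise (lowest chi-square per degree of freedom 6.24 over 70 pairs). Alternatives were RLE scaling, DESeq2 1.42.0, other filters, a fit of only the groups compared, no replicate block, each replicate left out, thinned counts and a fold-change minimum. The script was tested on simulated data.

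The members and gene lists were chosen with earlier results of these data known. Named are all members, other genes within 200 kb, the list genes with the largest changes at pH 6.6 with IL-2, and the 5 genes most like the family's mean z-score among genes whose mean log2 CPM was 3 or more. Exon lengths come from GENCODE M21.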

Additional observations from a re-analysis of the deposited data

Results flagged for a closer look

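In 3 of 56 combinations of gene and group, 1 of the 5 replicates stood apart from the others by Dixon's criterion, which chance alone meets in about 1 in 20 groups. Gimap9 at pH 7 with IL-2 was at 139 CPM in replicate 1, Gimap6 at pH 6.6 without IL-2 at 1287 CPM in replicate 3, and Gimap5 at pH 7.4 without IL-2 at 152 CPM in replicate 3; each was the highest of its group.

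For 6 members the response to pH 6.6 depended on IL-2 by the interaction term in edgeR, where 34.3% of all genes had a positive call. The differences in log2 were 1.55 for Gimap3, 1.39 for Gimap6, 1.23 for Gimap8, 1.01 for Gimap5, 0.91 for Gimap1 and 0.71 for Gimap4, each with the same sign in 5 of 5 replicates. Gimap9, which was not called, also had the same sign in 5 of 5 replicates. For pH 7 the interaction passed in 4 members, at 0.69 for Gimap3, 0.43 for Gimap4, 0.38 for Gimap8 and 0.31 for Gimap5. Over all genes, 2.19% had a positive call in the pH 7 interaction. Without the replicate block, or with the looser filter, Gimap3 alone of these 4 kept its call. When each replicate was left out in turn, the call was lost in all 5 fits for Gimap4, in 4 for Gimap8, in 3 for Gimap5 and in 0 for Gimap3.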

How the results depend on the processing

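Of 120 log2 fold changes of members, 79 passed the threshold, and over 12 alternatives each none of the 948 values of these 79 changed sign, 896 stayed past the threshold and 52 did not. Among those that had not passed, 19 values passed under an alternative and 21 changed sign: outside the replicates left out, these were Gimap7 with IL-2 at pH 7.4 under the stricter filter (-0.039) and Gimap1 at pH 6.6 with IL-2 against pH 7.4 without (0.0301 with RLE, 0.03004 with DESeq2). Leaving out 1 replicate gave log2 ranges that crossed 0 for Gimap1 (-0.068 to 0.12 in the pH 7 interaction, -0.051 to 0.046 at pH 6.6 with IL-2 against pH 7.4 without), Gimap4 (-0.0046 to 0.13 in the latter), Gimap5 (-0.014 to 0.043 for pH 6.6 without IL-2), Gimap7 (-0.052 to 0.066 for IL-2 at pH 7.4), Gimap8 (-0.057 to 0.0070 for pH 7 without IL-2) and Gimap9 (-0.073 to 0.17 for pH 7.4 with IL-2 against the start, -0.078 to 0.0101 for IL-2 at pH 6.6, -0.048 to 0.14 for pH 6.6 against pH 7 with IL-2), and counts of 1 to 3 members in the pH 7 interaction, 1 to 2 higher with IL-2 at pH 6.6, 0 to 1 higher with IL-2 at pH 7, 1 to 2 lower at pH 6.6 without IL-2 and 1 to 2 lower at pH 6.6 with IL-2 against pH 7.4 without. Without the replicate block the pH 7 interaction was positive in 1 member, and 1 was lower at pH 6.6 with IL-2 than at pH 7.4 without; the block changed no other count by over 1.5 times, and single calls lost without it stand beside their results. The looser filter gave the same pair of counts, 1 and 1, and RLE and DESeq2 gave 1 lower in the latter comparison. With only the groups compared, 5 were higher and 1 lower with IL-2 at pH 6.6, 2 lower at pH 6.6 without IL-2 and 1 lower at pH 7 without IL-2. Where the size of the log2 fold change also had to reach 1, 4 stayed higher at pH 6.6 with IL-2 against pH 7.4, 3 against pH 7, 4 lower with IL-2 at pH 7.4, 2 lower with IL-2 at pH 7, 4 with a positive pH 6.6 interaction, and 1 each lower at pH 7.4 and higher at pH 6.6 with IL-2 and higher at pH 6.6 without IL-2 against the start; the other counts became 0, except that 1 stayed lower at pH 6.6 without IL-2. The causes were not tested. Each member had at least 1685 reads in every library, and thinning all libraries to the smallest total lost 2 of the 79 calls, both of Gimap5.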
